A study of Mus musculus with 167 samples.

Results

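The miRNAs of the leukocyte (WBC) and erythrocyte (RBC) fractions were compared within sham mice, mice that had the procedure without whole thorax lung irradiation (WTLI). Samples were selected by their labels: a sham WBC library was kept when the same animal also had a sham RBC library, which left 16 mice and 32 of the 167 samples of the series. The mice were 11 C57 animals (C57Bl/6, 7 males and 4 females), bled in month 6, and 5 C3H animals (C3Hf/Sed/Kam, all female), bled in month 4. All were gnotobiotic, unmodified inbred mice, young adults when the study began. Terminal blood was drawn from the heart. The paper describes a low-speed spin that parted plasma from the blood cells, and does not say how white and red cells were separated. Strain, month of collection and in part sex therefore cannot be told apart here. Neither can a fraction and the set of libraries it was prepared in. A further 7 sham RBC libraries had no WBC partner, and 11 irradiated mice (6 C3H and 5 C57) had both fractions; both sets were compared with the results, although the former can only be set against the same WBC libraries.

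MiRNAs are short RNAs that pair through bases 2 to 8, the seed, with messenger RNAs and lower their output. Mature red cells have no nucleus and make no new RNA, but they keep a stock of miRNAs from their nucleated precursors, in which the miR-144/miR-451a gene is among the most active. White cells are nucleated and carry the miRNAs of their lineage: miR-223 in granulocytes and monocytes, miR-150, miR-155, miR-181 and miR-342 mainly in lymphocytes, and miR-142 in nearly all blood cells. Red cells far outnumber white cells in blood, so a white cell layer taken without lysis can hold many of them.

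The sequences below, from RefSeq (build GRCm38), are marker miRNAs of the red cell and granulocyte lineages and some of the miRNAs that differed between the fractions. MiR-351-5p is listed for its seed. The seed is in capitals.
mmu-miR-451a: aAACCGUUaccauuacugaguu
mmu-miR-144-3p: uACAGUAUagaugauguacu
mmu-miR-16-5p: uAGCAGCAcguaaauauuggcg
mmu-miR-223-3p: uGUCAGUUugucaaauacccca
mmu-miR-99a-5p: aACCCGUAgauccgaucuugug
mmu-miR-99b-5p: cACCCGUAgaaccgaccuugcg
mmu-miR-125a-5p: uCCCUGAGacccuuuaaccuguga
mmu-miR-125b-5p: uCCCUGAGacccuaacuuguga
mmu-miR-351-5p: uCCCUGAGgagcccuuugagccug
mmu-miR-28a-3p: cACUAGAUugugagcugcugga
mmu-miR-203-3p: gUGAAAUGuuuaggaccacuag
mmu-miR-29a-3p: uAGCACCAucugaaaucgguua
mmu-miR-744-5p: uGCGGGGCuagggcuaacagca
mmu-miR-484: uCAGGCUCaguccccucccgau
The miRNAs of the miR-99 pair shared the seed ACCCGUA, and miR-125a-5p, miR-125b-5p and miR-351-5p shared CCCUGAG. The genes of miR-144 (chr11:78073005-78073070) and miR-451a (chr11:78073170-78073241) lie side by side on the plus strand, outside any annotated host gene. MiR-223 lies on chrX:96242817-96242926 and overlaps an exon of the host transcript F630028O10Rik. MiR-744 (chr11:65734733-65734832) lies in an intron of Map2k4, and miR-484 (chr16:14159626-14159692) lies outside any gene on its own strand, across from Marf1.

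Total counts were 2354921 to 5060541 in WBC and 2939790 to 4702286 in RBC. The WBC library detected more miRNAs than the RBC library in 15 of 16 mice. WBC libraries detected 383, 485 and 538 miRNAs (lowest, median, highest) and RBC libraries 347, 388 and 412, a mean difference of 86.9 (SD 39.8, n = 16, two-sided sign-flip permutation test within mice, p = 6.10e-05, adjusted p = 0.000366 over 6 tests). The C57 mice alone gave an adjusted p of 0.00293 (exact permutation, n = 11). The 5 C3H mice gave an adjusted p of 0.188 (exact), and the smallest unadjusted p that 5 pairs allow is 0.0625. For library totals no difference was shown over all mice (0.164 on the log2 scale, WBC minus RBC, adjusted p = 0.195 by permutation, n = 16), although the WBC total was the higher in 5 of 5 C3H mice. Of 1915 listed miRNAs, 281 passed the filter on low counts and were tested. Levels are given in RPM, the count divided by the library total and multiplied by 1000000. In these units 3 counts correspond to 0.593 to 1.27 RPM in a WBC library and 0.638 to 1.02 RPM in an RBC library.

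The WBC libraries of C3H mice 2076, 2085 and 2086 stood apart. Over the 281 tested miRNAs, their rank correlation with RBC libraries was higher, at the median, than with the other WBC libraries. It was 0.937 against 0.894 for 2085 and 0.932 against 0.906 for 2076. For 2086 the values were nearly equal, at 0.91899 against 0.91858. This held for 3 of the 32 libraries, although the single nearest library was of the same fraction for 32 of 32. Mice 2076 and 2085, whose WBC libraries detected the fewest miRNAs, were left out in a further fit, and the counts of calls and the marker sums that moved most are also given without them.

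The same few miRNAs filled most of both fractions, and 9 of the 10 most abundant were shared. MiR-16-5p, an abundant red cell miRNA, made up 43.7% ± 5.93 of WBC counts and 45.3% ± 8.0 of RBC counts (SD, n = 16 each). Let-7i-5p followed with 14.1% ± 4.49 and 14.9% ± 5.57. MiR-93-5p and let-7f-5p followed in both fractions. MiR-21a-5p, an miRNA of many nucleated cells, made up 4.72% ± 1.93 of WBC counts and 2.50% ± 0.638 of RBC counts, and was higher in WBC in 14 of 16 mice. Its fitted difference ranged from -0.10 to 0.80 (log2) over the 5 scalings described below.

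The share of the profile common to both fractions of 1 mouse, the sum over all miRNAs of the smaller of its shares, was 72.4% to 90.1% (median 83.6%, n = 16 mice). WBC libraries of different C57 mice shared a median of 86.1% with each other and RBC libraries of different C57 mice 89.5%. For C3H mice the medians were 88.4% and 93.2%. By the same measure a WBC library shared a median of 28.4% with the lung, 20.7% with the heart and 23.6% with the brain of its own mouse. The share common to both fractions of a mouse was a little lower, at the median, than that among libraries of 1 fraction, and far above that with the solid organs. No test was made on these pairs, which share libraries.

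**Figure D1:**
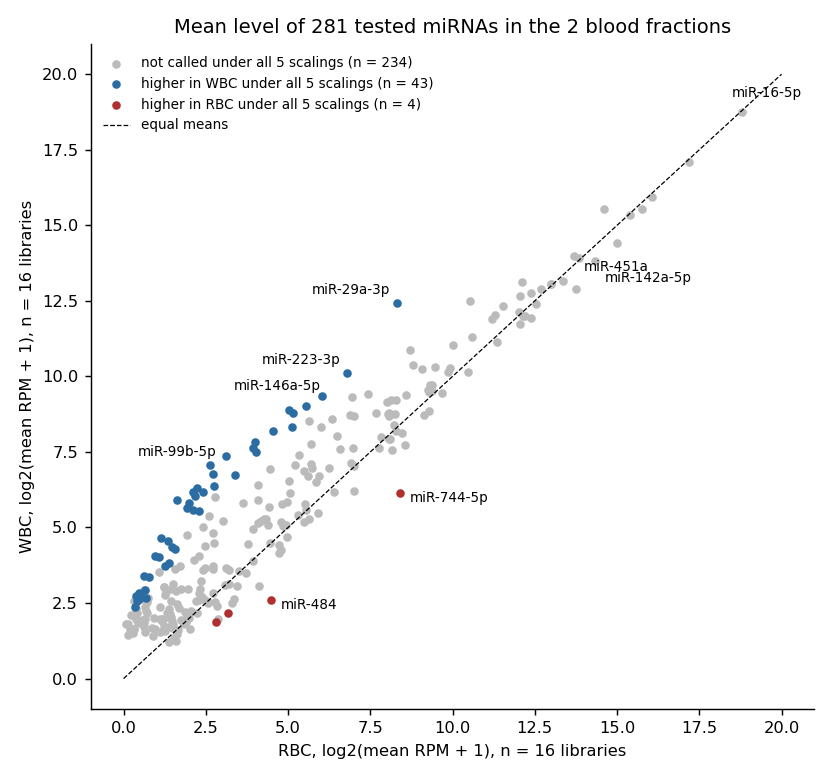
Mean level in WBC (vertical axis) against RBC (horizontal axis), both as log2(mean RPM + 1) over 16 sham mice, for each of 281 tested miRNAs. Blue points were higher in WBC (43) and red points higher in RBC (4) under each of 5 scalings; the abundant miRNAs at the upper right, miR-16-5p among them, lie near the dashed line of equal means, and the blue points lie at low and middle levels.

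Over both strains no listed red cell marker was called. Of 5 tested erythroid miRNAs (miR-451a, both arms of miR-144, miR-486a-5p and miR-486b-5p), 0 were called in either direction, with a median log2 difference (WBC minus RBC) of -0.07 after quantile normalisation, against -0.07 over all 281 miRNAs. With library size alone the erythroid median was -0.23 and that over all miRNAs 0.70. Of all tested miRNAs 30.2% were called. MiR-451a, which is matured by Argonaute 2 without Dicer, measured 5694, 12081 and 60075 RPM in WBC (lowest, median, highest) and 6796, 12924 and 20521 RPM in RBC. It was higher in WBC in 7 of 16 mice, and the highest values of all, 28947 to 60075 RPM, were in the WBC libraries of C57 mice 1062, 1063 and 1064. The fitted difference was -0.07 ± 0.21 (log2, SE, limma adjusted p = 0.787), and down to -0.88 under other scalings, short of a call. MiR-92a-3p, another abundant red cell miRNA, was called as higher in RBC in C57 mice after quantile normalisation (-1.39 ± 0.23, adjusted p = 3.42e-05, limma) but not under all 5 scalings, and its difference in C3H mice was 0.04.

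MiR-144-5p, from the other arm of the neighbouring gene, was higher in WBC in 6 of 16 mice. MiR-486a-5p and miR-486b-5p, whose levels were nearly the same in each library, were each so in 7 of 16. The sign of their fitted difference turned with the scaling (-0.60 to 0.13 for miR-486a-5p). MiR-144-3p was the only 1 of the 5 with the same direction in every mouse: it measured 5298, 7604 and 11486 RPM in WBC and 9566, 12874 and 19453 RPM in RBC, and was higher in RBC in 16 of 16 mice, which held for 3 of the 281 tested miRNAs (1.07%). Its difference of -0.68 ± 0.15 (adjusted p = 0.000633, limma) was below the minimum of 1.17 (log2) used for a call, and reached -1.46 under other scalings, with a call in 3 of 32 alternative fits. MiR-486a-3p, the minor arm of the miR-486a hairpin and not on the list, was higher in RBC under all 5 scalings. The summed erythroid level in WBC was 45.2% to 207% of that in RBC of the same mouse (median 87.6%, or 95.4% without mice 2076 and 2085). Of another list of 5 miRNAs abundant in red cells (miR-16-5p, miR-92a-3p, miR-25-3p, miR-15b-5p and miR-363-3p), 0 were called, against 30.2% of all tested. Among them is miR-16-5p, which the quantile step sets equal wherever it is the most abundant miRNA. MiR-363-3p went the other way in RPM, with a median of 5.32 in WBC and 1.496 in RBC, higher in WBC in 15 of 16 mice, and was called as higher in WBC with library size alone.

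Granulocyte and monocyte markers were higher in WBC. MiR-223-3p, which restrains granulocyte production and activity, measured 154, 613 and 3860 RPM in WBC and 31.2, 97.9 and 249 RPM in RBC. It was higher in WBC in 16 of 16 mice, and 14 of 16 WBC libraries lay above all 16 RBC libraries. The smallest gap was in C3H mouse 2085, with 162.7 RPM in WBC and 142.9 RPM in RBC, and the largest in C57 mouse 1052, with 3860 and 100.6 RPM. The difference was 2.01 ± 0.35 (log2, SE, limma adjusted p = 8.44e-05). MiR-223-5p, the minor arm, measured 7.0 to 151.6 RPM in WBC and 1.38 to 6.35 RPM in RBC, with no overlap between the groups. Such a gap, WBC above RBC in all libraries, was seen for 4 of the 281 tested miRNAs (1.42%), and the reverse for 0 (0.0%). In RBC the summed myeloid level was 2.62% to 87.5% of that in WBC of the same mouse (median 12.2%). The median was 45.1% in C3H mice and 11% in C57 mice. The highest value came from mouse 2085, and without mice 2076 and 2085 the range was 2.62% to 61.1% (median 11.1%).

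Lymphocyte markers were higher in WBC in RPM, with values that depended on the scaling. MiR-150-5p, a regulator of B and T cell maturation, measured 72.8, 345 and 1369 RPM in WBC and 20.1, 84.6 and 278 RPM in RBC, and was higher in WBC in 16 of 16 mice. The same count held for miR-155-5p, miR-342-3p and miR-181b-5p, and miR-181a-5p was higher in 15 of 16. In all, 39 of the 281 tested miRNAs were higher in WBC in every mouse (13.9%). After quantile normalisation 0 of 5 tested lymphoid miRNAs passed the fold minimum, with a median difference of 0.69 (16% of all tested were called as higher in WBC). With library size alone 5 of 5 did, with a median of 1.73, where 39.5% of all tested were called as higher in WBC and the median over all was 0.70. MiR-155-5p came closest (1.09 ± 0.21, adjusted p = 0.000231, limma). Within strains, miR-150-5p (1.32 ± 0.35) and miR-342-3p (1.24 ± 0.34) were called under all 5 scalings in C3H mice, and miR-155-5p (1.34 ± 0.23) in C57 mice. Their strain differences were not called (limma adjusted p = 0.0908, 0.0571 and 0.382). The summed lymphoid level in RBC was 13.5% to 89.1% of that in WBC (median 40.4%, or 35.1% without mice 2076 and 2085), and miR-150-3p had 0 counts in all 32 libraries.

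MiR-142a, active in nearly all blood cells, was abundant in both fractions. Its 5p arm measured 7850, 14816 and 22857 RPM in WBC and 10442, 20063 and 32324 RPM in RBC, and was higher in RBC in 13 of 16 mice. Its 3p arm measured 4059, 6761 and 9521 RPM in WBC and 3356, 5167 and 8760 RPM in RBC, and was higher in WBC in 15 of 16 mice. Neither arm was called, and the groups overlapped for both. The sign for the 3p arm turned with the scaling (-0.23 to 0.40). The summed miR-142a level in RBC was 80.4% to 215% of that in WBC (median 118%).

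**Figure D2:**
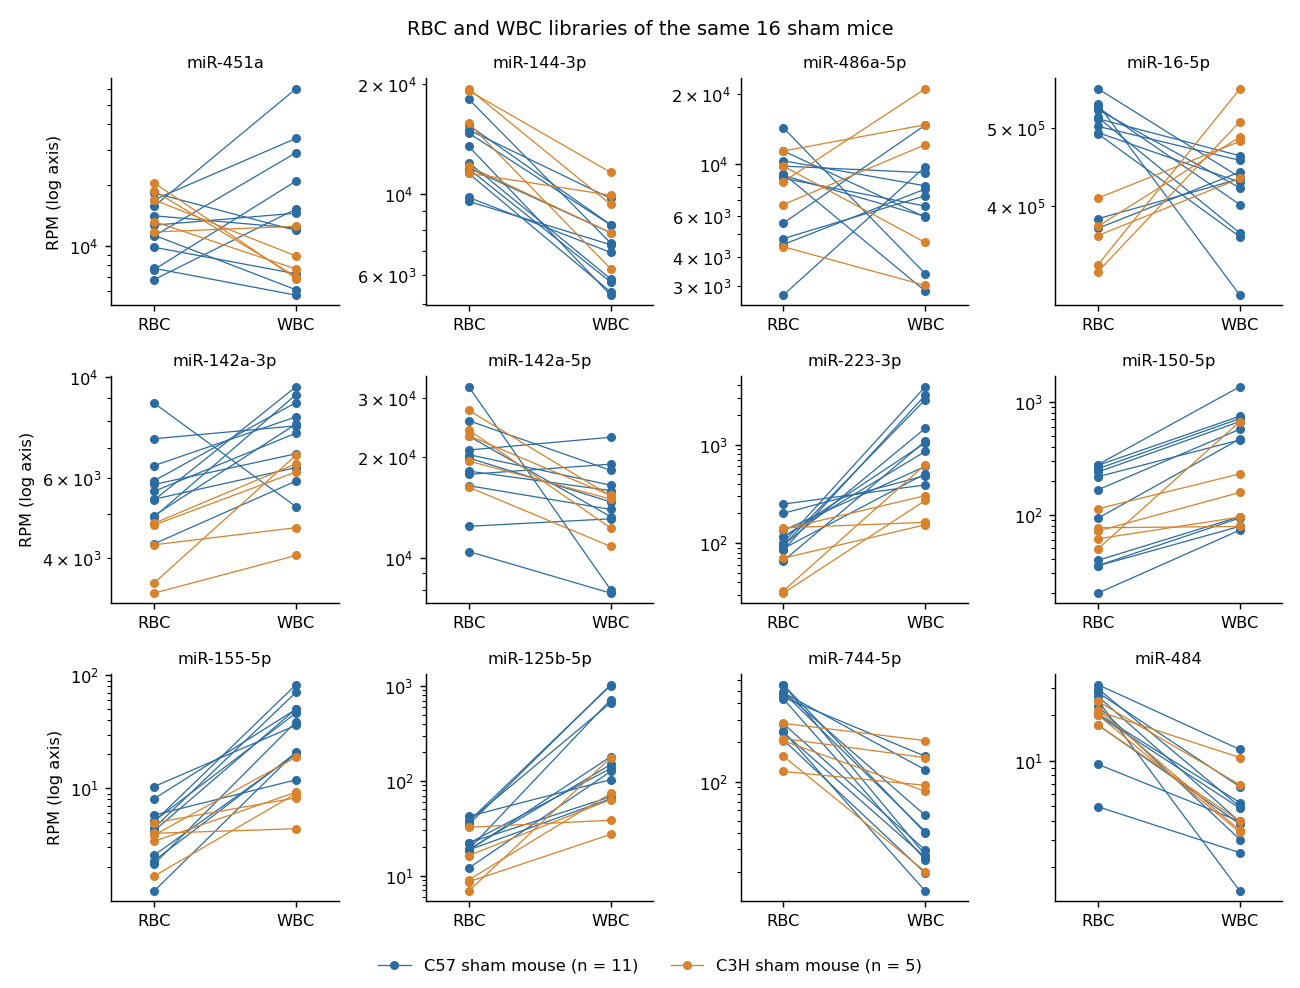
RPM (log axes that differ between panels) of 12 miRNAs in the RBC and WBC library of each sham mouse, joined by a line; blue marks 11 C57 mice and orange 5 C3H mice. The lines cross for miR-451a, miR-486a-5p and miR-16-5p, rise to WBC for miR-125b-5p, miR-223-3p, miR-155-5p and miR-150-5p, and fall to WBC for miR-144-3p, miR-744-5p and miR-484.

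Fitted over all 281 miRNAs, with the mouse as a block and equal weight for the strains, 85 miRNAs were called (30.2%; limma adjusted p under 0.05 and a log2 difference of at least 1.17). Of these 45 were higher in WBC (16%) and 40 higher in RBC (14.2%). This split moved with the scaling: edgeR with TMM factors gave 75 and 24, DESeq2 83 and 14, voom with TMM factors 74 and 24, and voom with library size alone 111 (39.5%) and 4. The median difference over all miRNAs moved with it, from -0.07 after quantile normalisation to 0.70 with library size alone. The quantile step gives every library the same distribution of values, and WBC libraries detected more miRNAs. The results below are therefore those called under all 5 scalings, a rule set after the data were seen: 43 miRNAs higher in WBC (15.3%) and 4 higher in RBC (1.42%). Of the 43, 12 had under 10 counts in every RBC library and so passed the filter on low counts only through WBC; their calls support nothing further. Of these 47, 33 were also called in every alternative fit in which they were tested. The alternatives include the scalings that chose the 47 and reuse the same libraries, so the count of 33 is a description. It includes miR-335-3p, miR-669o-3p and miR-466p-3p, which are among the 12 that passed the filter only through WBC. Without mice 2076 and 2085 the quantile-normalised fit called 97 miRNAs, of which 81 were among the 85.

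The 43 miRNAs higher in WBC were of low and middle abundance. Together they made up 0.118%, 1.14% and 3.01% of WBC counts and 0.0433%, 0.0805% and 0.112% of RBC counts (lowest, median, highest). The 4 miRNAs higher in RBC made up 0.0167% to 0.0603% of RBC counts and 0.00199% to 0.0223% of WBC counts. Both sets were chosen for their direction in these same libraries, so these shares only describe their size. The other 234 tested miRNAs held a median of 98.8% of WBC counts and 99.9% of RBC counts.

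Among the largest differences were those of the miR-99 and miR-125 families, which act in blood stem cells and the myeloid lineage. MiR-99b-5p measured 11.6, 68.4 and 450 RPM in WBC and 0, 3.86 and 13.0 RPM in RBC. It was higher in WBC in 16 of 16 mice, by 3.45 ± 0.35 (log2, SE, limma adjusted p = 2.47e-07), and 15 of 16 WBC libraries lay above all RBC libraries. MiR-99a-5p (2.72 ± 0.30), miR-125a-5p (2.70 ± 0.32) and miR-125b-5p (1.83 ± 0.33) followed, each higher in WBC in 16 of 16 mice. These are the 4 listed members that were tested, and 15.3% of all tested miRNAs were called in that direction. The minor arm miR-99b-3p and miR-351-5p, which has the seed of miR-125, had at most 3 and 5 counts in any RBC library and passed the filter only through WBC. The minor arm miR-125b-2-3p (0.07) was not called.

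Let-7e-5p was also among the 43. Its gene (chr17:17830352-17830444, in an intron of Spaca6) is a neighbour of that of miR-125a (chr17:17830812-17830879, which overlaps an exon of Spaca6). It measured 19.7, 127 and 539 RPM in WBC and 2.01, 14.2 and 47.0 RPM in RBC, a difference of 2.04 ± 0.31 (adjusted p = 2.48e-05, limma). Of 9 tested let-7 members with the seed GAGGUAG, let-7e-5p was called and 8 were not; this share is near that of all tested miRNAs called as higher in WBC (16%). The others make up most of the family's reads: let-7a-5p measured a median of 19616 RPM in WBC and 33321 RPM in RBC.

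MiR-28a-3p had the second largest difference among miRNAs higher in WBC, 3.11 ± 0.20 (adjusted p = 4.23e-09, limma), and no overlap: it measured 6.25 to 170 RPM in WBC and 0.308 to 5.80 RPM in RBC. MiR-203-3p (2.50 ± 0.23), known best from skin, also did not overlap, at 6.50 to 166 RPM in WBC and 0.934 to 6.46 RPM in RBC. These, with miR-223-5p and miR-669c-5p, are the 4 miRNAs whose groups were separate. MiR-338-3p, miR-671-5p and miR-339-5p complete the group of large differences, with log2 values of 2.30 to 2.41, and were higher in WBC in 15, 15 and 16 of 16 mice. MiR-671-5p differed by 3.56 ± 0.38 in C57 mice and by 1.14 ± 0.52 in C3H mice, where it was not called (adjusted p = 0.12, limma), and this strain difference was called under all 5 scalings. So was that of miR-203-3p, with 3.43 ± 0.27 in C57 mice and 1.57 ± 0.38 in C3H mice. Neither was called without mice 2076 and 2085 (limma adjusted p = 0.236 and 0.246). The same held with library base composition as a covariate (0.0544 and 0.143).

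MiR-29a-3p was the most abundant of the 43. It is known for targets in the extracellular matrix and in T cells. It measured 381, 4552 and 15819 RPM in WBC and 192, 319 and 467 RPM in RBC, was higher in WBC in 15 of 16 mice, and differed by 2.61 ± 0.22 (adjusted p = 7.40e-08, limma). The exception was mouse 2085, where RBC measured 467 RPM and WBC 381 RPM. MiR-29a-3p differed by 3.69 ± 0.24 in C57 mice and by 1.54 ± 0.37 in C3H mice. This strain difference was called under all 5 scalings, but not without mice 2076 and 2085 (adjusted p = 0.121, limma) or with library base composition as a covariate (adjusted p = 0.0658). MiR-29b-3p (0.54) and miR-29c-3p (1.11), which have the same seed, did not pass the fold minimum.

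MiR-146a-5p, which is induced by inflammatory signals and is a brake on Toll-like receptor signalling, measured 62.7, 483 and 1935 RPM in WBC and 21.0, 58.3 and 117 RPM in RBC (1.95 ± 0.25, adjusted p = 3.99e-06, limma). It was higher in WBC in 16 of 16 mice. So was miR-221-3p, with a median of 53.1 RPM in WBC and 3.49 RPM in RBC (1.93 ± 0.20). MiR-23a-3p (1.86 ± 0.23) and miR-27a-3p (1.63 ± 0.24), from 1 gene cluster (chr8:84208518-84208921), were called, while miR-24-3p of the same cluster (0.88) was not. Of its 4 tested miRNAs, 2 were called as higher in WBC in C57 mice under all 5 scalings (24.6% of all tested) and 0 in C3H mice (8.9%). In mouse 2085 miR-23a-3p measured 60.2 RPM in WBC and 81.7 RPM in RBC, and miR-27a-3p 10.5 and 17.9 RPM. MiR-152-3p (2.04 ± 0.19) was called and its seed mates miR-148a-3p and miR-148b-3p were not.

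The related miR-466, miR-467 and miR-669 miRNAs, a group expanded in the mouse, gave 10 of the 43 calls; the group was chosen after its values were seen, and over all tested miRNAs the share was 15.3%. Its copies lie mostly in an intron of Sfmbt2 and are near identical, so reads may be split among them. Of 17 tested members 10 were called under all 5 scalings, and the fitted differences of the 17 ran from 0.22 to 2.21 (median 1.40). Of the 17, 13 had under 10 counts in every RBC library, 6 of the 10 called among them, so these counts are a description. Their summed level was 42.0, 171 and 848 RPM in WBC and 7.76, 15.3 and 41.3 RPM in RBC. As the group was chosen after its values were seen, these sums are a description as well.

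On the RBC side, miR-484 and miR-744-5p were the clearest. MiR-484, whose primary transcript is cut without Drosha, measured 1.38, 3.99 and 11.9 RPM in WBC and 4.97, 21.5 and 31.8 RPM in RBC. It was higher in RBC in 16 of 16 mice, with a difference of -3.20 ± 0.25 (adjusted p = 2.52e-08, limma). MiR-744-5p measured 14.3, 40.7 and 207 RPM in WBC and 120, 280 and 557 RPM in RBC, also higher in RBC in 16 of 16 mice (-2.98 ± 0.26, adjusted p = 8.47e-08), although it was not called in C3H mice alone. In 14 of 16 mice for miR-484 and 13 of 16 for miR-744-5p the RBC value lay above all WBC values.

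MiR-96-5p (-2.57 ± 0.37) and miR-486a-3p (-2.47 ± 0.29) were the other two called under all 5 scalings, both at low levels: the RBC medians were 5.77 and 7.01 RPM and the WBC medians 2.27 and 3.37 RPM. MiR-96-5p was higher in RBC in 13 of 16 mice and miR-486a-3p in 14 of 16. The next 6 by size after quantile normalisation (miR-296-5p, miR-16-2-3p, miR-3057-5p, miR-3074-1-3p, miR-5624-3p and miR-6967-3p) were not called under all scalings. For miR-5624-3p the median RPM was 1.91 in WBC and 1.94 in RBC, and the difference was -1.88 after quantile normalisation and -0.66 with library size alone.

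**Figure D3:**
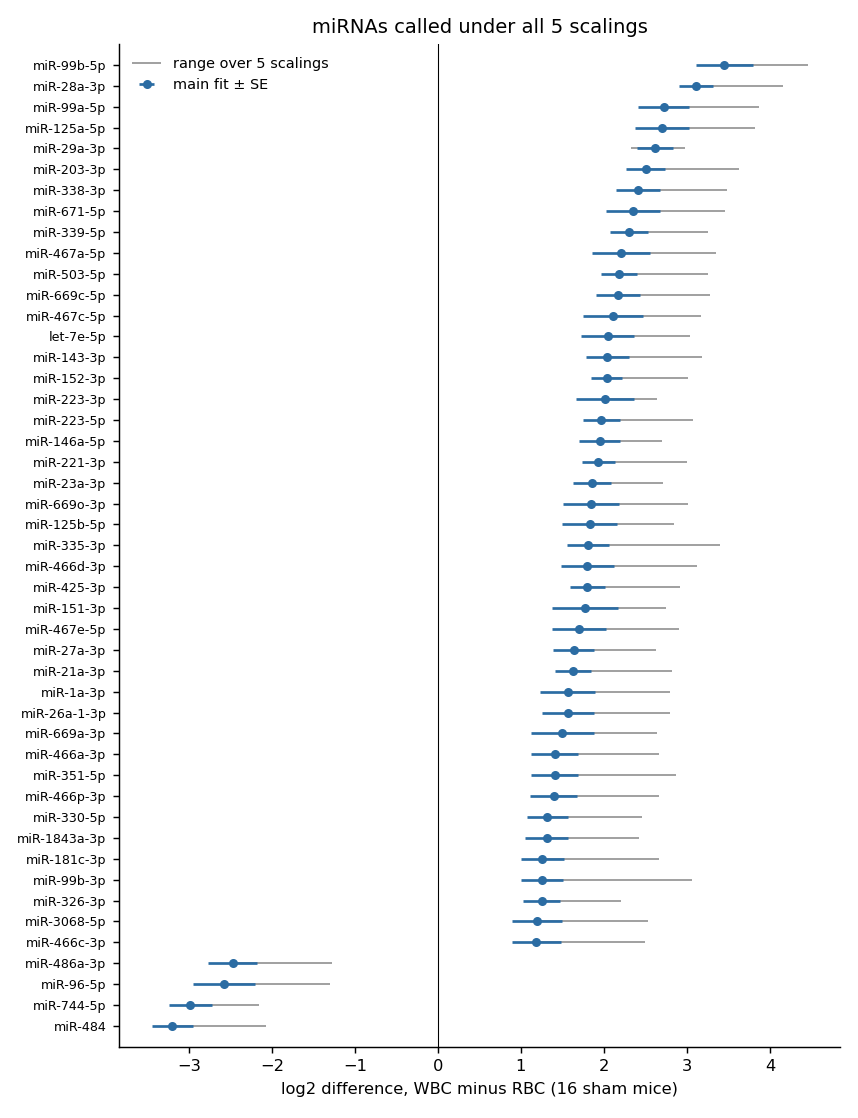
Log2 difference (WBC minus RBC, 16 sham mice) of the 47 miRNAs called under all 5 scalings. Points and blue bars are the quantile-normalised fit ± SE, and grey lines span the values under the 5 scalings; miR-99b-5p is at the top with 3.45 and miR-484 at the bottom with -3.20, and the grey lines extend to the right of nearly all points.

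Under all 5 scalings 0 of 13 tested members of miR-17-92 and its paralogues, 0 of 6 of the miR-15/16 family, 0 of 5 of the miR-30 family and 0 of 4 of the miR-181 family were called. Of all tested miRNAs 15.3% were called as higher in WBC and 1.42% as higher in RBC by that rule, so counts of 0 in families this small say little. After quantile normalisation, but not under all 5 scalings, miR-106b-5p (-1.42), miR-195a-5p (-1.44) and miR-497a-5p (-1.21) were called as higher in RBC, and miR-191-5p (1.48) and miR-128-3p (1.28) as higher in WBC. MiR-423-5p was higher in RBC after the same step (-1.82), whereas miR-423-3p from the other arm was not called (-0.05).

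Markers of other cell types were checked in both fractions. MiR-1a-3p, the main miRNA of heart and skeletal muscle, measured 1.16, 13.0 and 33.2 RPM in WBC and 0, 0.584 and 10.4 RPM in RBC, and was called as higher in WBC (1.56 ± 0.33, adjusted p = 0.000542, limma). The RBC median lay below the level of 3 counts. The difference was 2.77 ± 0.39 in C57 mice and 0.35 ± 0.54 in C3H mice, where it was not called (adjusted p = 0.657), and the strain difference (-2.41 ± 0.67, adjusted p = 0.0184, limma) was called under all 5 scalings. In the heart its median was 237630 RPM. Of the other cardiac markers, miR-208a-3p had 0 counts in all 32 libraries, miR-133a-3p had 33 counts in WBC and 2 in RBC in all, and miR-499-5p was higher in RBC in 12 of 16 mice, with a WBC median of 4.52 and an RBC median of 7.69 RPM (called after quantile normalisation, not under all scalings). The summed level of the 4 cardiac markers was 5.25 to 38.3 RPM in WBC and 3.74 to 32.1 RPM in RBC. Their part in other differences was not tested.

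MiR-143-3p, a smooth muscle and fibroblast miRNA, measured 15.5, 108 and 204 RPM in WBC and 2.21, 7.95 and 37.1 RPM in RBC (2.04 ± 0.26, adjusted p = 3.99e-06, limma). Of 5 mesenchymal markers 2 passed the filter and 1 was called, where 30.2% of all tested were called and 15.3% as higher in WBC under all 5 scalings; miR-199a-5p and miR-214-3p had at most 4 counts in a fraction. The summed mesenchymal level was 19.2 to 213 RPM in WBC and 3.50 to 43.9 RPM in RBC, higher in WBC in 16 of 16 mice, against a median of 57360 RPM in lung. Of 2 endothelial and platelet markers, both arms of miR-126a, 0 were called, with a summed level of 845 to 5333 RPM in WBC and 828 to 1966 RPM in RBC. Of 5 epithelial markers 2 were tested, and miR-141-3p was called as higher in RBC after quantile normalisation but not under all scalings (-1.20). The summed epithelial level was 242 to 470 RPM in WBC and 179 to 636 RPM in RBC. Of 2 neuronal markers 1 was tested and 0 were called, and miR-124-3p had 2 counts in WBC and 0 in RBC. The summed neuronal level was 8.18 to 91.0 RPM in WBC and 4.21 to 126 RPM in RBC.

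MiR-122-5p, made almost only by hepatocytes, was not called over both strains (0.71 ± 0.29). In C3H mice it was called as higher in WBC under all 5 scalings (1.80 ± 0.45, adjusted p = 0.0094, limma), and in C57 mice its difference was -0.37 ± 0.36 after quantile normalisation and up to 1.42 under other scalings, with a higher RPM in WBC in 10 of 11 mice. The strain difference of 2.17 ± 0.57 (adjusted p = 0.0159, limma) was not called under all 5 scalings. The miRNA was at 1.55 to 4883 RPM in WBC and 0.317 to 892 RPM in RBC. Both highest values came from C3H mouse 2073, and the next highest were 90.5 RPM in WBC and 40.6 RPM in RBC. It was called in 3 of 31 alternative fits. The part of other cells or of free RNA in any of these levels was not tested, and in bulk samples fewer cells of a type and less RNA per cell cannot be told apart.

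Whether red cell and granulocyte content varied against each other was examined over the 16 mice with log2 RPM of miR-451a and miR-223-3p. In WBC Pearson's r was -0.06 (permutation p = 0.827, adjusted p = 0.827) and Spearman's rho -0.11 (permutation p = 0.69, adjusted p = 0.879). In RBC they were -0.23 (permutation p = 0.397, adjusted p = 0.793) and -0.04 (permutation p = 0.879, adjusted p = 0.879). Without the 2 mice farthest from the median of miR-451a, r was -0.27 in WBC and -0.02 in RBC. The strains differed in miR-223-3p, so the relation was also computed within the 11 C57 mice. There r was -0.53 in WBC (permutation p = 0.0901, adjusted p = 0.18) and -0.22 in RBC (permutation p = 0.51, adjusted p = 0.51), and rho -0.51 (permutation p = 0.114, adjusted p = 0.229) and -0.03 (permutation p = 0.938, adjusted p = 0.938). In the 5 C3H mice, where no test was run, r was -0.63 in WBC and 0.32 in RBC. The within-strain values in WBC were more negative than the pooled one, and no tested value passed. The tests covered 2 relations for all mice and 2 within C57 mice.

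The strains were then compared. C57 mice gave 134 calls (47.7%), 72 higher in WBC (25.6%) and 62 higher in RBC (22.1%), and C3H mice 48 (17.1%), 26 higher in WBC (9.25%) and 22 higher in RBC (7.83%). Without C3H mouse 2086 the C3H count was 26. Under all 5 scalings C57 mice had 69 higher in WBC (24.6%) and 5 higher in RBC (1.78%), and C3H mice 25 (8.9%) and 5 (1.78%). These counts rest on 11 and 5 mice. Tested directly, the fraction difference itself differed between strains for 55 miRNAs (19.6%), and for 21 under all 5 scalings (7.47%), 18 of them with a lower WBC minus RBC value in C3H. The direction depended on the scaling: of the 55, 31 were higher and 24 lower in C3H, whereas library size alone gave 3 higher and 123 lower. The median myeloid sum in WBC was 1092 RPM in C57 mice and 290 RPM in C3H mice.

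The number of strain differences called changed with few libraries. Without mice 2076 and 2085, which leaves 3 C3H mice, the count fell to 3, and with the base composition of each library as a covariate it fell to 4. All 55 kept their sign in both fits, at a median of 82.9% and 73.6% of their size. This is a description, since both fits reuse the libraries that chose the 55. MiR-503-5p and miR-744-5p were called in both of those fits. MiR-503-5p, a relative of the miR-15/16 family, measured 65.4, 150 and 205 RPM in WBC of C57 mice and 11.7, 21.8 and 34.4 RPM in WBC of C3H mice, which did not overlap. In RBC it measured 1.17 to 6.17 RPM in C57 mice and 5.02 to 15.5 RPM in C3H mice. The difference between strains (C3H minus C57) was -3.12 ± 0.44 (adjusted p = 0.000223, limma).

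MiR-322-3p, from the same cluster on the X chromosome (chrX:53047997-53054349), measured 1.57 to 8.49 RPM in WBC of C57 mice and 0 to 0.462 RPM in WBC of C3H mice, and at most 0.992 RPM in RBC. All values but those of WBC in C57 mice were at the level of 3 counts or below, so its fitted strain difference of -2.85 ± 0.52 (adjusted p = 0.00239, limma) is no measure of size. It passed the count filter only through the group where it was high, so its call under any fit supports nothing further. Of 9 tested miRNAs of that cluster, 6 were called as higher in WBC in C57 mice under all 5 scalings (24.6% of all tested) and 0 in C3H mice (8.9% of all tested). The strain difference itself was called under all 5 scalings for 3 of the 9 (7.47% of all tested). MiR-322-3p is among the 6 and among the 3, and the cluster was examined because of miR-503-5p and miR-322-3p. Another member, miR-450a-5p, was also low outside WBC of C57 mice. It measured 1.80 to 11.3 RPM there, at most 1.62 RPM in WBC of C3H mice and at most 2.32 RPM in RBC. These counts of calls are therefore a description. The median log2 difference of the 9 was 1.37 in C57 and -0.12 in C3H. MiR-744-5p went the other way: its RBC excess was -4.82 ± 0.30 in C57 and -1.15 ± 0.42 in C3H, where it was not called (adjusted p = 0.0528; difference 3.67 ± 0.52, adjusted p = 0.000223, limma).

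The share of miR-16-5p also varied among RBC libraries. It made up 33.1% to 40.9% of RBC counts in the 5 C3H mice and 49.1% to 55.9% in 9 of the C57 mice. The share was 37.5% and 38.5% in C57 mice 1086 and 1087. The part of this in the strain difference was not tested.

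**Figure D4:**
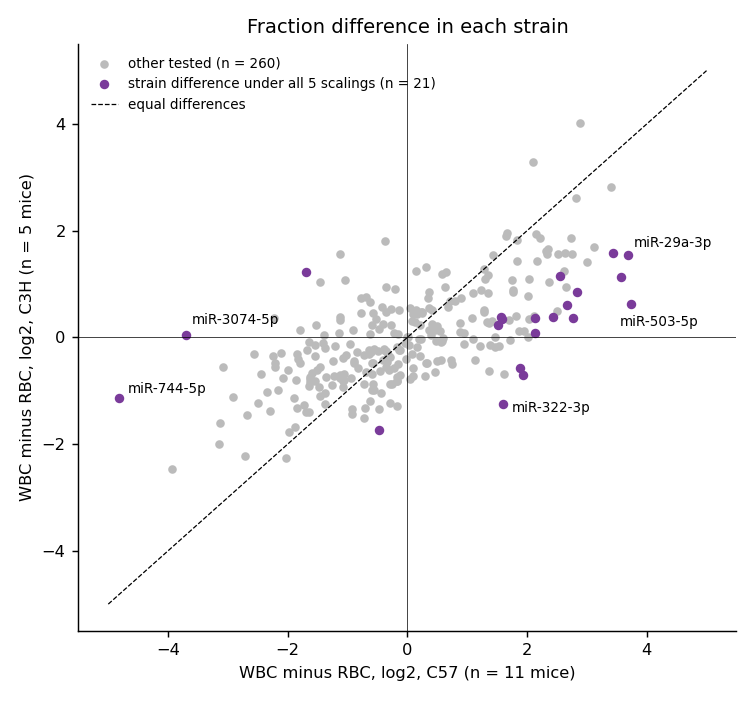
Log2 difference (WBC minus RBC) in 5 C3H mice (vertical axis) against 11 C57 mice (horizontal axis) for 281 tested miRNAs. Purple marks 21 miRNAs whose strain difference was called under all 5 scalings; miR-503-5p and miR-322-3p lie to the lower right of the dashed line of equal differences, and miR-744-5p at the far left.

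The fractions were compared once more in mice not used above. In the 11 irradiated mice, 243 miRNAs were tested and 56 called (23.0%), 35 higher in WBC (14.4%) and 21 higher in RBC (8.64%). Of the 43 miRNAs higher in WBC in sham mice, 40 were tested; all 40 were higher in WBC and 32 were called. Without the 12 that passed the filter only through WBC, 31 of 31 were higher in WBC and 29 were called. All 4 higher in RBC were called in the same direction, by this quantile-normalised fit alone. In RPM, miR-744-5p was higher in RBC in 11 of 11 irradiated mice and miR-484 in 10. MiR-96-5p was so in 8 and miR-486a-3p in 6. MiR-99b-5p differed by 2.26 ± 0.45, miR-28a-3p by 2.58 ± 0.34, miR-744-5p by -2.51 ± 0.21 and miR-484 by -2.68 ± 0.32 (log2, SE). For miR-451a again no difference was detected (-0.01 ± 0.18, adjusted p = 0.977, limma).

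Of the 85 miRNAs called in sham mice 78 were tested in irradiated mice; 48 of them were called in the same direction, 56.5% of the sham list and 85.7% of the irradiated list. Across the 242 miRNAs tested in both, the log2 differences had a Pearson's r of 0.94 and a Spearman's rho of 0.92, as a description, since miRNAs are not independent replicates and the irradiated libraries belong to the same WBC and RBC sets. In the 7 sham RBC libraries without a WBC partner, all values lay below the WBC median for 41 of the 43 miRNAs, and all lay above it for 3 of the 4 higher in RBC. Over all 281 tested miRNAs these shares were 37.7% and 3.56%. The WBC libraries are those that chose the 43 and the 4, so this is no independent check.

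**Figure D5:**
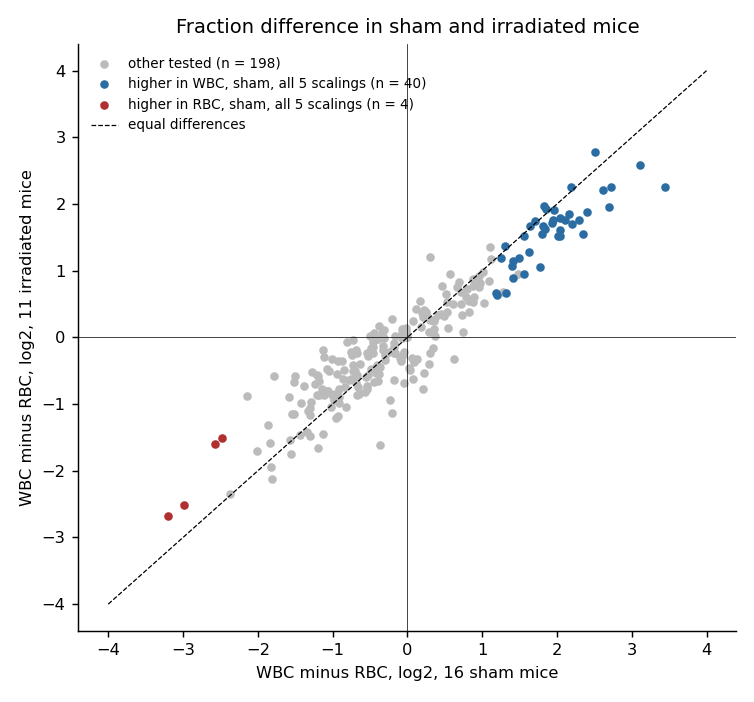
Log2 difference (WBC minus RBC) in 11 irradiated mice (vertical axis) against 16 sham mice (horizontal axis) for the 242 miRNAs tested in both. The 40 blue points, higher in WBC in sham mice under all 5 scalings, all lie above 0 on both axes, and the 4 red points lie below 0 on both.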

How the data were processed

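MiRNA was sequenced from WBC and RBC fractions of blood. The authors prepared QIAseq libraries, aligned the reads in a cloud pipeline (build mm10), rejected runs with few miRNA reads, and deposited raw counts for 1915 mature miRNAs in each library. The use of molecular identifiers in counting and the assignment of reads shared by similar miRNAs are not given in the sources used here, so the level given for 3 counts reflects counting alone. All columns named a sample (0 did not) and all rows an miRNA (0 did not).

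As in the study, counts were scaled to log2 RPM and quantile normalised with voom, and fitted with limma 3.58.1 in R 4.3.3. The model held the animal and the fraction within strain. MiRNAs were kept by filterByExpr (10 counts, 15 in total) and called at a Benjamini-Hochberg adjusted p under 0.05 and a log2 difference of at least 1.17. The animal pairs the fractions per the labels; deviations of the paired libraries correlated at -0.162 to 0.527 (median 0.073, 8 of 16 over 0.1). Alternatives used edgeR 4.0.16, DESeq2 1.42.0, other scalings, filters and subsets of mice. RPM is per library total. Permutation tests used scipy 1.17.1 with 100000 resamples, or all sign changes where fewer. On counts simulated for the sham comparison with changes of 2 (log2), this fit recovered 55 of 59 changed miRNAs among 241 tested, with 1 false call; edgeR and DESeq2 recovered 59 with 0 false calls.

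Marker lists, families and comparisons were chosen with earlier results of these data known. Named miRNAs are the 10 called with the largest difference in each direction, the 10 most abundant in each fraction, up to 5 with a called strain difference, the markers, and the families that passed the filter. Other miRNAs named in the text, the rule of a call under all 5 scalings and the miR-466/467/669 group were chosen after the values were seen. Sequences were found in RefSeq (GRCm38) for 234 of 281 tested miRNAs, and host genes in GENCODE of that build. No pair of libraries in a group matched within sampling noise (chi-square over its degrees of freedom at least 33.8). Lung, heart and brain served only for levels of markers and for profile overlap. Plasma was not analysed here.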

Additional observations from a re-analysis of the deposited data

Results flagged for a closer look

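The 5 strain differences with the smallest adjusted p were looked at again because the fraction difference itself differed between C3H and C57 mice (C3H minus C57, limma). They were -3.12 for miR-503-5p, 3.67 for miR-744-5p, 2.246 for miR-195a-5p, -2.85 for miR-322-3p and 1.23 for miR-140-5p. MiR-503-5p, miR-744-5p and miR-322-3p were called under all 5 scalings, although all values of miR-322-3p outside WBC of C57 mice were at 3 counts or below. MiR-195a-5p ranged from 1.04 to 2.246 and miR-140-5p from 0.16 to 1.23 over the scalings, and neither was called under all of them. Strain, month and, in part, sex cannot be told apart in these values. In RPM, miR-122-5p was far above the other C3H mice in mouse 2073, at 4883 RPM in WBC and 892 RPM in RBC. These were 2 of 67 sets of 5 C3H values checked against Dixon's 95% critical value of 0.71 (57 of log2 WBC to RBC ratios, totals and detected miRNAs, and 10 of levels in RPM that the report gives for C3H mice, chosen after they were seen); chance alone gives about 1 in 20. Levels of the other miRNAs were not checked in this way.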

How the results depend on the processing

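Of the named log2 differences, 26 were called and 0 of these had another sign in any alternative that tested them; 23 were not called and 11 of these, the largest at 0.54, did. Scaling moved the split of calls as given above. Strain difference counts were the least stable: 126 with library size alone, 19 with at least 10 counts in every library, 0 with mice of code letter A alone and 7 with those of letter B (the meaning of the letter is not given in the sources used here), 18 in females alone, 4 with base composition as a covariate and 3 without mice 2076 and 2085. With at least 10 counts in every library, which tests 134 miRNAs, the calls were 20 (both strains), 17 (C3H) and 36 (C57). Without a fold minimum 176 were called in both strains. C3H calls were 21 with letter A and 2 with letter B alone, and C57 calls 89 in females alone. Leaving out 1 mouse gave 26 to 52 calls in C3H, lowest without 2086, and 19 to 62 for the strain difference, with 36 without 1063, 23 without 2076 and 19 without 2085. Without the replicate block (the animal) the counts were 86, 45, 136 and 58, and 53 in irradiated mice, and no count moved by over 1.5 times. After thinning to 2354921 counts, WBC libraries still detected 72.1 more miRNAs (permutation, n = 16). The covariate and the fit without mice 2076 and 2085 were added after the data were seen. Apart from fewer samples or miRNAs, the cause was not tested. MiRNAs under about 1 RPM rest on few counts.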

Other observations

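The ratio of the 5p to the 3p arm of a hairpin does not depend on how libraries are scaled. It was compared for the 59 hairpins with both arms tested (log2 ratio with 0.5 added to each count, two-sided sign-flip permutation within 16 mice, adjusted over 59). In 29 hairpins the adjusted p was under 0.05, and in 21 of these the fractions differed by at least 1 on the log2 scale. For miR-425 the log2 ratio of 5p to 3p was 4.42 in WBC and 7.54 in RBC, lower in WBC in 16 of 16 mice (adjusted p = 0.000225 by permutation). For miR-21a it was 11.6 in WBC and 13.9 in RBC, and for miR-29a -10.6 and -7.54, both lower in WBC in 16 of 16 mice. The minor arm of miR-21a and miR-425 thus took a larger share of its hairpin in WBC, while that of miR-29a took a smaller one. For miR-423 the ratio was -0.33 in WBC and 1.96 in RBC, lower in WBC in 14 of 16 mice; the WBC value was within its spread of 0 (SD 1.46). Reads that end differently and adapter preferences of a library could not be examined in counts, and their part was not tested.

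The 43 miRNAs higher in WBC had a median G+C content of 50.0% (30 with a sequence), against 45.5% over all tested miRNAs (234 with a sequence). The G+C content of all reads other than miR-16-5p was 39.3% to 42.2% in WBC libraries and 39.8% to 41.6% in RBC libraries.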
